A study of Mus musculus with 4 samples.

Results

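The genes described here are 10 milk protein genes of the mouse, Ltf, Lalba, Csn1s1, Csn1s2a, Csn2, Csn3, Wap, Wfdc18, Glycam1 and Trf, taken by symbol from the 31053 genes of the count files. Each symbol matched 1 gene. The fourth inguinal fat pad, which in females encloses a mammary gland, had been digested with collagenase, and its stromal vascular fraction (all cells but the floating fat cells) was sequenced cell by cell with 10x Chromium 3′ v3 chemistry. All mice were of strain C57BL/6 and aged 8 weeks. The groups were 24 h at 4 °C (cold, 2 libraries) and room temperature (2 libraries), and the study's question, from its title, is whether mammary ducts influence how adipocytes turn to heat production in the cold. No label says how warm the room was, how many animals went into a library, or whether the mice were virgin. The p-values below therefore reflect library-to-library spread alone, which may be technical.

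Milk proteins are made by the luminal epithelium of the mammary gland. In late pregnancy and lactation, prolactin acts through its receptor and the factor Stat5, with Elf5 in alveolar cells, to raise the caseins, the whey proteins and lactose synthesis. In the resting gland, luminal cells fall into hormone-sensing cells, which carry the receptors for oestrogen, progesterone and prolactin, and alveolar progenitors, which carry Elf5 and Kit. Basal myoepithelial cells surround both and do not make milk.

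The 4 libraries held 35198164 to 55160902 UMIs (unique molecular identifiers, each standing for 1 captured transcript), and 15197 cells were kept, of which 2553 were luminal. The cells formed 32 clusters, which were named by fixed marker genes without the 10 milk protein genes. The names mean "like that type by its markers". Alveolar progenitors (110 and 66 cells in cold replicates 1 and 2, 38 and 83 cells in room-temperature replicates 1 and 2) carried Elf5 at 323 to 567 and Kit at 434 to 1030 CPM. CPM is the gene's UMI count scaled to a fixed total of UMIs of the class in a library. The hormone-sensing class (507, 499, 466 and 143 cells in the same order) joined 2 clusters. A cluster led by Prlr, the prolactin receptor, had 476, 383, 116 and 105 cells, and a cluster led by Upk3a had 31, 116, 350 and 38 cells. The Prlr-led cluster therefore held most of this class in both cold libraries and in room-temperature replicate 2. The Upk3a-led cluster held most of it in room-temperature replicate 1. A further cluster of 641 cells carried both luminal marker sets (Prlr at 2666 to 4722 CPM, Elf5 at 95.7 to 166 CPM) and was kept as a class of its own. Its median depth was 42291 UMIs per cell, against 16638 (Prlr-led) and 26180 (Upk3a-led) in the hormone-sensing clusters and 5436 in alveolar progenitors. Before doublets, barcodes that hold 2 cells, were removed, 1.09% of its cells had been called doublets. The part of doublets that the caller missed was not tested. Over the series, 42 of 19176 barcodes occurred in more than 1 library.

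The casein genes lie together on chromosome 5 (GRCm38, GENCODE), where Csn1s1, Csn2, Csn1s2a and Csn3 span 266 kb. The start regions of Csn1s1, Csn2 and Ltf are shown because Csn1s1 and Csn2 were high in the same library and Ltf was high in others. They are the 250 bases before the RefSeq start (GRCm38.p6), 5′ to 3′ on the gene's strand, from chr5:87665958-87666207 (plus strand), chr5:87699426-87699675 (minus strand) and chr9:111019042-111019291 (plus strand). Capitals mark the palindrome TTCNNNGAA, the core letters of Stat-type sites, which reads the same on both strands. For Csn1s2a only 29 bases around its match are given (chr5:87774460-87774488, plus strand), because the match starts 21 bases after the RefSeq start.
Csn1s1: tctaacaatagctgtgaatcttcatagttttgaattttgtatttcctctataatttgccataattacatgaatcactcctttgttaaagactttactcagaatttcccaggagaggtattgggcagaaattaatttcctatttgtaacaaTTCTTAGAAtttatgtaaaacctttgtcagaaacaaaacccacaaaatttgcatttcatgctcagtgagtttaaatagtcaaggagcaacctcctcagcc
Csn2: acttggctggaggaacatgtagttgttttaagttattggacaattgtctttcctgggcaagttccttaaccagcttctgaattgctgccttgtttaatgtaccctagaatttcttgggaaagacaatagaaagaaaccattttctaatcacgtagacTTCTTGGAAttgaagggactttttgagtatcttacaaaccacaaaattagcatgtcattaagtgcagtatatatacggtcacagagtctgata
Ltf: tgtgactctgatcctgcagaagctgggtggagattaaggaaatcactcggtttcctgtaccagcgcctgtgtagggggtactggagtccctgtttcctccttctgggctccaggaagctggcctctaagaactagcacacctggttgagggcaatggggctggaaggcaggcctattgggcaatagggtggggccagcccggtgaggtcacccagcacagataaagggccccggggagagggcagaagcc
Csn1s2a: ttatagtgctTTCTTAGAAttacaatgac
The match began 100 bases before the start of Csn1s1 and 93 bases before that of Csn2. In the GENCODE record Csn2 starts at 87699630, so that this match lies inside the gene there, Csn1s2a starts at 87774567, after its match, and Ltf starts at 111019271, within the last bases of its window. Of the 8 milk protein genes in the promoter table, 4 held the letters in the 300 bases from 250 before to 50 after the start: Csn1s1, Csn2, Csn1s2a and Glycam1. Ltf, Lalba, Wap and Wfdc18 did not hold them in this window. Over all 32851 promoters of the table, 8.3% held them. A match is a description of the letters and not a measured site. The regions shown were chosen by the levels of their genes, and a link between the letters and the levels was not tested.

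Across cell classes, most of the members were luminal transcripts. Of the UMIs in kept cells, luminal cells held 98.9% for Ltf, 98.6% for Csn3, 98.9% for Wfdc18, 99.1% for Csn1s1, 98.5% for Csn1s2a and 98.7% for Csn2. For Lalba they held 645 of 679 UMIs. Trf and Glycam1 were different. For Trf, the plasma iron carrier transferrin, macrophages held 56.1% of the UMIs and luminal cells 28.8%. For Glycam1, vascular endothelium held 97.1% and luminal cells 1.10%. In basal cells Trf stood at 187 to 357 CPM and Csn3 at 4.83 to 206 CPM, while Ltf had 2 UMIs in all.

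**Figure D1:**
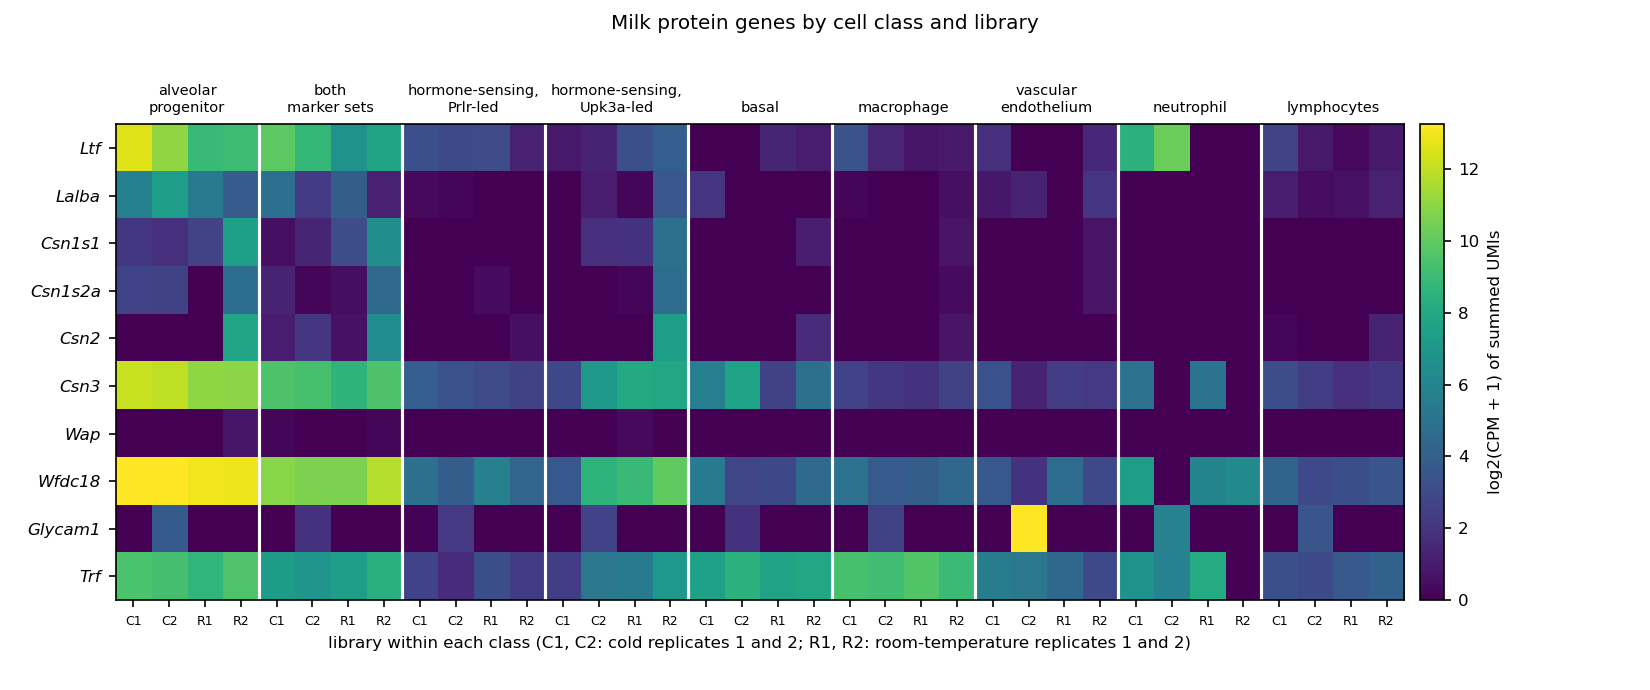
Levels of the 10 milk protein genes as log2(CPM + 1) of UMIs summed per class and library, with 9 classes from left to right and 4 libraries in each. Ltf, Csn3 and Wfdc18 are bright in the alveolar progenitor class and the class with both marker sets, Csn1s1, Csn1s2a and Csn2 in room-temperature replicate 2, and Glycam1 in the vascular endothelium of cold replicate 2.

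Whether cold changed these genes was tested in each luminal class over the 4 libraries. In alveolar progenitors Ltf and Csn3 rose with cold, while Wfdc18 and Trf had log2 fold changes of 0.20 and 0.09 that did not pass. Of 6521 genes tested in this class with the edgeR quasi-likelihood test, 1.47% passed in either direction and 1.09% were higher in cold, and 2 of the 5 members tested passed, both higher in cold. In the same class the 6 alveolar markers together stood at 6739 and 6015 CPM in cold and at 4265 and 4780 CPM at room temperature, and the 5 basal markers at 50.6 and 29.7 against 94.0 and 86.2 CPM. Neither set overlapped between groups or had a marker at 0 in all libraries. Other sets did overlap: the 9 hormone-sensing markers stood at 537 and 374 CPM in cold and at 376 and 495 CPM at room temperature. The 6 macrophage markers, at 71.5 and 470 against 116 and 72.7 CPM, overlapped too. The share of all genes without overlap is not given here, and the part of these sets in the rise of Ltf and Csn3 was not tested. The other members did not pass the low-count filter. Among them Csn1s1 stood at 3.49 and 2.47 CPM in cold and at 5.53 and 176 CPM at room temperature. Csn2 had 0 UMIs in both cold libraries and in room-temperature replicate 1, and stood at 218 CPM in room-temperature replicate 2. The 5 members tested had UMIs in all 4 libraries, but the filter can also pass a gene that is high in 1 group only. None of 7 members tested passed in the class with both marker sets, none of 5 in the hormone-sensing class and none of 3 in lymphocytes, where 0.0252%, 0.00781% and 0.11% of all genes passed in either direction. The members with an unadjusted p under 0.05 numbered 4, 4 and 1 in these classes, beside 2040 of 11888, 1578 of 12797 and 2448 of 10926 genes in all. DESeq2 called 2, 1 and 0 members, beside 218, 150 and 133 of the same genes. Basal cells had 17 cells in cold replicate 2, under the minimum of 20, and were not tested.

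Ltf encodes lactoferrin, an iron-binding protein of milk, other secretions and neutrophil granules (ENSMUSG00000032496, chromosome 9, 111019271 to 111042767). In alveolar progenitors it stood at 6091 and 2113 CPM in cold replicates 1 and 2 and at 481 and 534 CPM in room-temperature replicates 1 and 2. Both cold libraries lay above both room-temperature libraries, and the cold libraries differed from each other more than those at room temperature did. The mean of the cold libraries was 4102 ± 2813 CPM, against 508 ± 37.8 CPM for the others (SD, n = 2 libraries each). On the log2 scale cold exceeded room temperature by 2.91 (SE 0.37), with an adjusted p of 0.00149 by edgeR's quasi-likelihood test. Without room-temperature replicate 1 the value was 2.84 but its adjusted p was 0.634, and no gene of the class passed in that fit, while 608 had an unadjusted p under 0.05.

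Depth differed between the groups in this class. Its cells had median depths of 3447 and 4073 UMIs in cold and 8616 and 11514 UMIs at room temperature, and the part of this in the result was not tested beyond thinning. Ltf was detected in 80.0% and 68.2% of alveolar progenitors in cold and in 34.2% and 63.9% at room temperature. After each cell was thinned to 2000 UMIs, with shallower cells left out, the shares were 76.7% (95% Clopper-Pearson interval 66.6 to 84.9) and 63.0% (48.7 to 75.7) in cold. At room temperature they were 15.6% (5.28 to 32.8) and 43.9% (33.0 to 55.3). Between 32 and 90 cells per library remained, and the intervals cover counting error only. In the thinned cells that held Ltf, the mean was 15.7 and 7.94 UMIs in cold and 6.60 and 3.44 UMIs at room temperature.

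Neutrophils are a known source of Ltf, so their genes were read in the same cells. The granule genes Camp and Ngp had 0 UMIs in all 3 luminal classes of each library. In the neutrophil class itself, Camp was found in cold replicate 2 only. Lcn2, a further granule gene, went the other way. It was among the leading genes of the alveolar progenitor cluster and of the cluster with both marker sets. Of neutrophils, 29 of 39 and 14 of 23 held it in cold, and 9 of 19 and 7 of 14 at room temperature. The 5 neutrophil markers summed to 1 or 2 UMIs per library in alveolar progenitors, 1.43 to 5.53 CPM, with Csf3r at 0. They summed to 9 to 29 UMIs per library, 1.54 to 2.42 CPM, in the class with both marker sets. In the hormone-sensing class they summed to 213 and 22 UMIs in cold and 292 and 8 UMIs at room temperature, 1.77 to 20.5 CPM. In the 95 cells of the neutrophil class, Ltf was found in 3 cells of cold replicate 2 (64 UMIs), which also held 86 UMIs of Camp and 164 of Ngp. It was found in 1 cell of cold replicate 1 (24 UMIs), which held neither, and in no neutrophil at room temperature.

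In the class with both marker sets Ltf stood at 972 and 448 CPM in cold and at 112 and 211 CPM at room temperature. The groups did not overlap here either. The log2 fold change was 2.22 (SE 0.43) and did not pass (adjusted p = 0.126, edgeR quasi-likelihood), but it passed with DESeq2 (adjusted p = 0.0394). The hormone-sensing markers of this class stood at 7929 and 7482 CPM in cold and at 5541 and 5863 CPM at room temperature. Its alveolar markers stood at 1209 and 1151 against 1227 and 2274 CPM, and its basal markers at 6.15 and 7.04 against 13.5 and 20.1 CPM. Their part in the Ltf level was not tested. No member passed in this class with RLE scaling, doublets kept, the looser cell filter, the finer clustering resolution or the members kept in the clustering. In the thinned cells, 56.8% and 31.6% held Ltf in cold and 16.1% and 21.2% in the room-temperature libraries. The largest number of Ltf UMIs in a luminal cell was 354, in this class in cold replicate 1. In the hormone-sensing class Ltf stood at 7.77 and 5.24 CPM in cold and at 8.14 and 7.04 CPM at room temperature, beside 0.248 to 5.57 CPM in lymphocytes. Macrophages held 9.54 and 1.72 CPM of Ltf in cold and 0.694 and 0.905 CPM at room temperature.

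Lymphocytes (T, B and NK cells, 4262 in all) should not transcribe milk protein genes, so their level stands for free RNA. Ltf there was 5.57 and 0.872 CPM in cold and 0.248 and 0.921 CPM at room temperature. Alveolar progenitors thus held 1094 and 2424 times the lymphocyte level of their own library in cold, and 580 times in room-temperature replicate 2. In room-temperature replicate 1 lymphocytes had 1 UMI. The order of Ltf by class was alveolar progenitors, then both marker sets, then hormone-sensing cells in each of the 4 libraries. Basal cells had 0 UMIs in both cold libraries and 1 UMI in each room-temperature library.

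**Figure D2:**
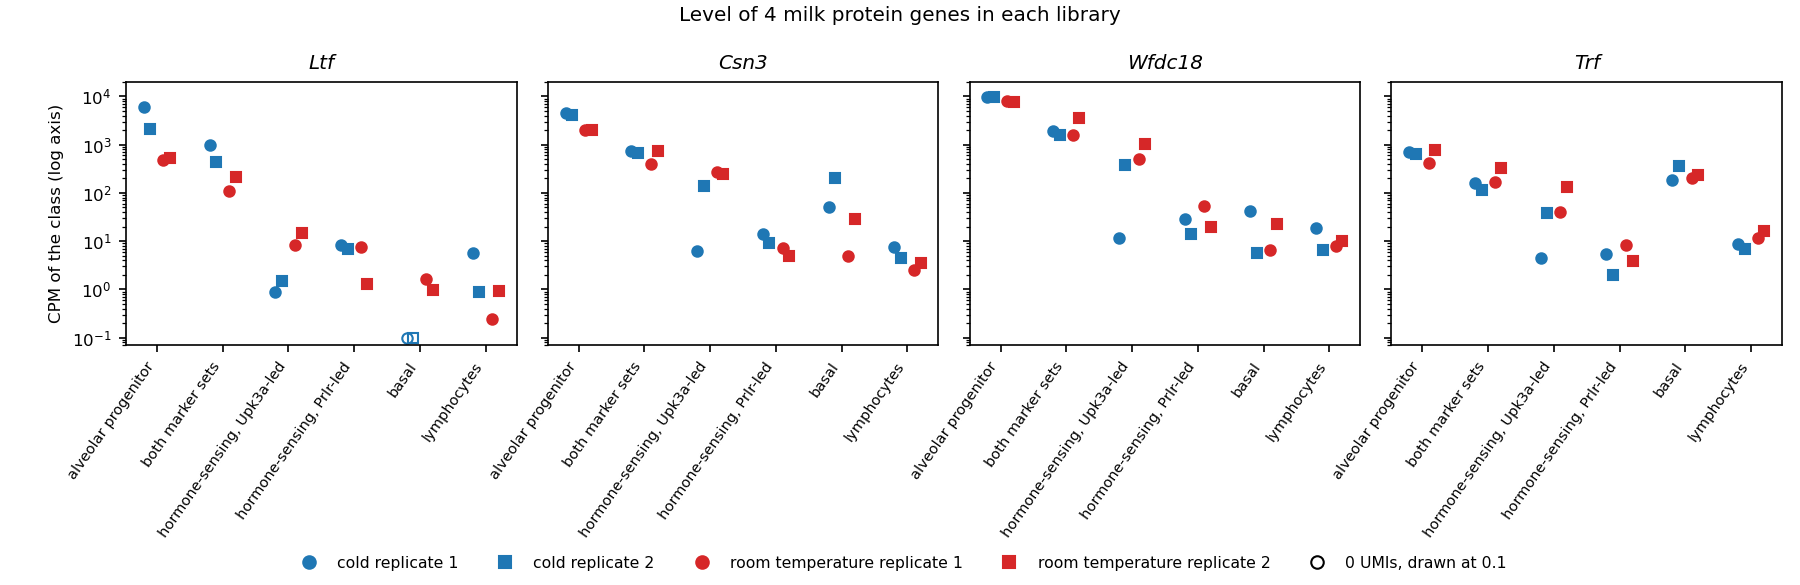
CPM of Ltf, Csn3, Wfdc18 and Trf in 6 classes (log axis), with 1 point per library; circles are replicate 1 and squares replicate 2 of cold (blue) or room temperature (red). In alveolar progenitors both blue points of Ltf (2113 and 6091) and of Csn3 (4075 and 4483) lie above both red points, and in lymphocytes all 4 genes lie under 20 CPM.

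Trf (ENSMUSG00000032554, chromosome 9, 103204001 to 103230444) is the other iron-binding member. It stood at 706 and 656 CPM in cold and 415 and 779 CPM at room temperature in alveolar progenitors, where the groups overlapped (log2 fold change 0.09, SE 0.27). In macrophages it stood at 666 and 579 CPM in cold and 797 and 514 CPM at room temperature, again with overlap. The 6 macrophage markers together stood at 71.5 and 470 CPM in alveolar progenitors in cold and at 116 and 72.7 CPM at room temperature, and none was at 0 in all libraries. Their part in the Trf level was not tested. In the class with both marker sets Trf was at 157 and 117 CPM in cold and at 166 and 322 CPM at room temperature. The change of -0.76 on the log2 scale (SE 0.28) did not pass (edgeR adjusted p = 0.259).

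Csn3 encodes kappa-casein, which coats and stabilises the casein micelle (ENSMUSG00000001622, chromosome 5, 87925579 to 87932665). In alveolar progenitors it stood at 4483 and 4075 CPM in cold and at 2023 and 1983 CPM at room temperature. The spread within each group was small beside the gap between them. Cold exceeded room temperature by 1.00 on the log2 scale (SE 0.21), with an adjusted p of 0.0255 by edgeR's quasi-likelihood test. The share of cells with a Csn3 UMI was 84.5% and 83.3% in cold and 84.2% and 88.0% in the others, and 84.4%, 81.5%, 75.0% and 75.6% after thinning in the same order. Among thinned cells with Csn3, the mean was 10.9 and 11.4 UMIs in cold and 5.0 UMIs in both room-temperature libraries. The call ended without room-temperature replicate 1 (1.03, adjusted p = 0.634), without room-temperature replicate 2 (0.97, adjusted p = 0.164) and with doublets kept (0.94, adjusted p = 0.0575).

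In lymphocytes Csn3 was at 7.71 and 4.53 CPM in cold and at 2.48 and 3.50 CPM at room temperature. That difference (log2 fold change 0.99, SE 0.43) did not pass (adjusted p = 0.231, edgeR quasi-likelihood), but its size was that of alveolar progenitors. The alveolar level was 567 to 899 times the lymphocyte level of the same library. In the class with both marker sets Csn3 stood at 732 and 679 CPM in cold and at 390 and 749 CPM at room temperature, where the groups overlapped (log2 fold change 0.38, SE 0.26). Basal cells held 17, 71, 3 and 29 UMIs of Csn3 in the 2 cold and 2 room-temperature libraries, of which 16, 52, 2 and 17 lay in a single cell each.

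Wfdc18 encodes a whey acidic protein-type secreted protein of the resting gland, also called Expi (ENSMUSG00000000983, chromosome 11, 83709015 to 83711348). It was found in nearly every alveolar progenitor, 98.5 to 100% of cells per library. Its level there was 9586 and 9659 CPM in cold and 8021 and 7706 CPM at room temperature. The groups did not overlap, but the log2 fold change of 0.20 (SE 0.21) did not pass (adjusted p = 0.729, edgeR quasi-likelihood). In the class with both marker sets it stood at 1915 and 1600 CPM in cold and at 1561 and 3515 CPM at room temperature. Lymphocytes held 6.45 to 18.6 CPM, and 2.79 to 8.81% of them had a Wfdc18 UMI at median depths of 2770 to 6703 UMIs.

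The hormone-sensing class showed lower values of Csn3, Wfdc18 and Trf in cold that did not pass the test. Csn3 stood at 13.5 and 49.7 CPM in cold and at 214 and 106 CPM at room temperature. Its change was -2.34 on the log2 scale (SE 0.68; edgeR adjusted p = 0.38). Wfdc18 stood at 27.4 and 128 CPM in cold and at 407 and 455 CPM at room temperature (-2.44, SE 0.69, adjusted p = 0.374), and Trf had -2.22 (SE 0.46, adjusted p = 0.36). Under 3 other ways of clustering (the looser cell filter, the finer resolution and the members kept in), Csn3 in this class was 0.35 to 0.61 on the log2 scale, the opposite sign, and did not pass either. The Upk3a-led cluster held 93.8% of the class's Csn3, 93.3% of its Wfdc18 and 88.4% of its Trf UMIs. It made up 31 of 507 and 116 of 499 cells in cold replicates 1 and 2. At room temperature it made up 350 of 466 and 38 of 143 cells. Trf in the class stood at 5.32 and 13.3 CPM in cold and at 33.9 and 57.6 CPM at room temperature. Csn3, Wfdc18 and Trf were thus lower in cold in the replicate 2 libraries as well.

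Within the Prlr-led cluster alone Csn3 was at 14.3 and 9.11 CPM in cold and at 7.21 and 4.82 CPM at room temperature. That was 1.38 to 2.91 times the lymphocyte level of each library. Macrophages held 5.34 and 3.44 CPM of Csn3 in cold and 2.88 and 4.82 CPM at room temperature. In the Prlr-led cluster the log2 fold changes were 0.97 (SE 0.38) for Csn3, 0.73 (SE 0.63) for Ltf, -0.75 (SE 0.56) for Wfdc18 and -0.69 (SE 0.64) for Trf. None of the 4 passed the edgeR quasi-likelihood test (adjusted p = 0.495 for Csn3), which 0.00872% of genes passed. So the sign of Csn3 turned between the class and its Prlr-led cluster, though neither value passed. Ltf overlapped between the groups in both. It stood at 7.77 and 5.24 CPM in cold and 8.14 and 7.04 CPM at room temperature in the class. In the Prlr-led cluster it stood at 8.49 and 6.98 CPM in cold and 7.54 and 1.31 CPM at room temperature. In the Upk3a-led cluster Csn3 was at 6.23 and 137 CPM in cold and at 271 and 242 CPM at room temperature. Wfdc18 was at 11.6 and 372 against 503 and 1043 CPM there, and Trf at 4.45 and 37.5 against 40.9 and 130 CPM. Ltf was at 0.890 and 1.52 against 8.30 and 14.8 CPM, with 1 UMI in cold replicate 1. The groups did not overlap for any of these genes, and that cluster was not tested by itself. Elf5 there was at 1.78 and 21.3 CPM in cold and at 27.3 and 56.7 CPM at room temperature. The 6 alveolar markers together, none of them at 0, stood at 130 and 186 CPM in the hormone-sensing class in cold and at 313 and 325 CPM at room temperature, and their part in the result was not tested.

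The cold effect in alveolar progenitors was set against that in the hormone-sensing class by an interaction term, with each library as a block. Of 11560 genes, 1.11% passed in either direction and 0.969% had the higher effect in alveolar progenitors, and 4 of 9 members tested passed. The differences in log2 fold change were 2.99 for Ltf (SE 0.36, adjusted p = 1.09e-04), 3.45 for Csn3 (SE 0.47), 2.98 for Wfdc18 (SE 0.48) and 2.45 for Trf (SE 0.33). Against the Prlr-led cluster alone, where 0.0459% of genes passed, none of 6 members tested passed. The class with both marker sets against that cluster likewise had none of 8 (0.13% of genes passed). For alveolar progenitors the difference was 1.98 for Ltf (SE 0.66, edgeR quasi-likelihood adjusted p = 0.465) and 0.06 for Csn3 (SE 0.48, adjusted p = 0.999). For the class with both marker sets no member passed, of 9 tested against the hormone-sensing class (0.0154% of genes passed) and of 8 against alveolar progenitors (1.64% passed).

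**Figure D3:**
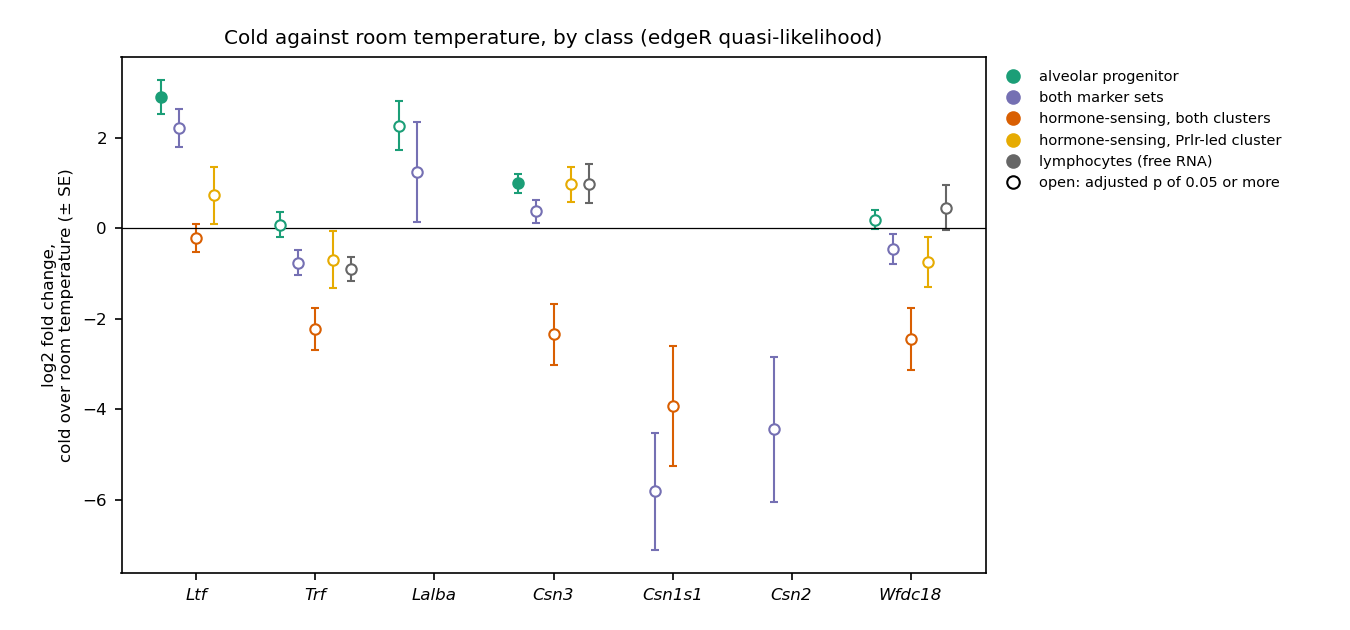
Log2 fold change of cold over room temperature with its SE for the 7 members that could be tested in at least 1 class, by class; filled points have an edgeR adjusted p under 0.05. Ltf (2.91) and Csn3 (1.00) in alveolar progenitors are the filled points, and in the hormone-sensing class the values of Csn3, Wfdc18 and Trf lie near -2 with both clusters and nearer 0 with the Prlr-led cluster alone.

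Lalba encodes alpha-lactalbumin, the regulatory subunit of lactose synthase (ENSMUSG00000022991, chromosome 15, 98480400 to 98482721). In alveolar progenitors it had 32 and 69 UMIs in cold and 15 and 19 UMIs at room temperature, or 55.8, 171, 41.5 and 13.5 CPM. Both cold libraries were above both others, but few cells set these values: 65 of the 69 UMIs of cold replicate 2 lay in 1 cell. The log2 fold change of 2.27 (SE 0.54) did not pass (adjusted p = 0.0546, edgeR quasi-likelihood). It ranged from 1.24 to 2.92 over the alternatives and passed in some, such as RLE scaling (adjusted p = 0.0425), and not in others, such as DESeq2 (0.998). In the class with both marker sets Lalba had 380 and 22 UMIs in cold and 70 and 9 UMIs at room temperature, and the groups overlapped. Lymphocytes held 2 to 7 UMIs of Lalba per library.

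The calcium-binding caseins, which form the core of the micelle, were high in 1 room-temperature library. These are the alpha-caseins Csn1s1 (ENSMUSG00000070702, chromosome 5, 87666208 to 87682578) and Csn1s2a (ENSMUSG00000061937, chromosome 5, 87774567 to 87788797) and beta-casein, Csn2 (ENSMUSG00000063157, chromosome 5, 87692624 to 87699630). Csn2 had 14 and 19 UMIs in luminal cells in cold and 3 and 1150 UMIs at room temperature, so that room-temperature replicate 2 held 97.0% of them. For Csn1s1 the counts were 8 and 20 in cold and 73 and 884 in the room-temperature libraries, with 89.7% in that library. For Csn1s2a they were 23 and 3 in cold and 5 and 230 in the room-temperature libraries, with 88.1% in that library. Room-temperature replicate 2 stood apart from its own replicate as well as from both cold libraries. In the class with both marker sets, its 6 alveolar markers together stood at 2274 CPM. They stood at 1209 and 1151 CPM in cold and at 1227 CPM in room-temperature replicate 1. In alveolar progenitors the same markers stood at 4780 CPM in this library, within the range of the others (4265 to 6739 CPM). The part of these markers in the casein counts was not tested.

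In the class with both marker sets Csn1s1 stood at 0.434 and 1.54 CPM in cold and at 7.65 and 89.0 CPM at room temperature. Both room-temperature libraries were above both cold libraries. The log2 fold change of -5.81 (SE 1.30) did not pass (adjusted p = 0.146, edgeR quasi-likelihood) and was -3.21 without room-temperature replicate 2. Csn2 in that class was at 1.01 and 3.26 CPM in cold and at 0.589 and 83.1 CPM at room temperature, where the groups overlapped. Its log2 fold change was -4.44 (SE 1.60, adjusted p = 0.253, edgeR quasi-likelihood) and 1.66 without room-temperature replicate 2, the opposite sign. Lymphocytes held 0 UMIs of Csn1s1 and Csn1s2a in all 4 libraries, which in room-temperature replicate 2 allows up to 0.553 CPM, and held 8 UMIs of Csn2 in that library.

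A small number of cells carried these transcripts. In room-temperature replicate 2, 30 of 363 luminal cells (8.26%) had a Csn2 UMI, and the 4 with most held 69.0% of the UMIs. The top cell, in the Upk3a-led cluster, had 292 UMIs of Csn2 beside 228 of Csn3 and 347 of Wfdc18 among its 37546 UMIs. Of these 30 cells, 76.7% also had Csn1s1, against 9.31% of the 333 luminal cells without Csn2. They were deeper too, at a median of 49664 against 24222 UMIs, and the part of depth and of cell class in this was not tested. Csn1s1 was found in 54 luminal cells of this library, and 98.1% of these had Csn3 and 64.8% had Ltf. Among the 309 cells without Csn1s1 the shares were 52.8% and 38.5%, at a median depth of 22590 UMIs against 49143. The 54 cells were 16 alveolar progenitors, 30 cells with both marker sets and 8 hormone-sensing cells. Over all cells of these classes in that library, in the same order, Csn3 was found in 88.0%, 89.1% and 14.7%. Ltf was found in 63.9%, 67.9% and 5.59% of them. The part of class and depth in the shares was not tested.

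The spread over cells differed between members. The 1% of luminal cells with most UMIs, 26 cells over the 4 libraries, held 99.2% of Csn2, 91.2% of Csn1s2a, 85.9% of Lalba and 84.4% of Csn1s1. They held 27.1% of Ltf, 17.7% of Csn3, 15.9% of Wfdc18 and 32.8% of Trf. Only 35 cells had a UMI of Csn2 and 49 one of Csn1s2a, so 26 cells must hold most of these UMIs whatever their spread. For Ltf 795 cells had a UMI, and for Wfdc18 1345 cells. A UMI was found in 52.7% of luminal cells for Wfdc18, 40.7% for Csn3, 35.1% for Trf and 31.1% for Ltf. The shares were 3.64% for Lalba, 3.45% for Csn1s1, 1.92% for Csn1s2a and 1.37% for Csn2.

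**Figure D4:**
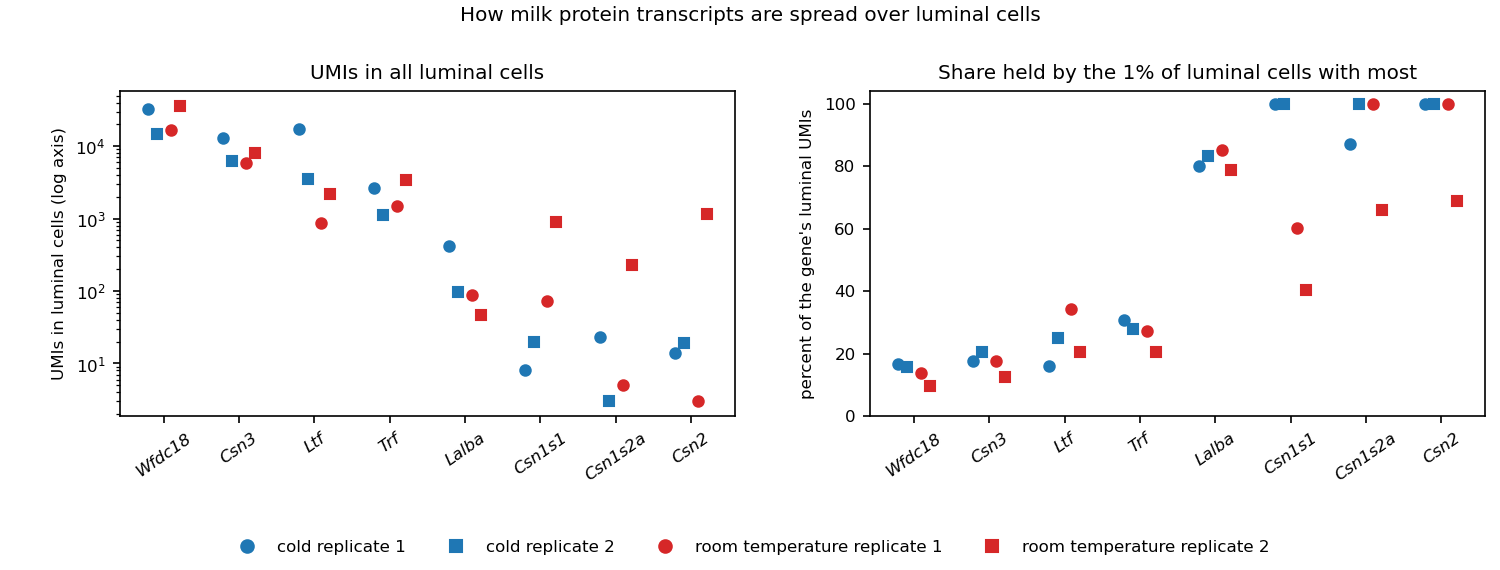
Left, UMIs of 8 members in all luminal cells of each library (log axis); right, percent of those UMIs in the 1% of luminal cells with most of the gene. Csn1s1, Csn1s2a and Csn2 are high in room-temperature replicate 2 (884, 230 and 1150 UMIs), and Wfdc18, Csn3, Ltf and Trf have under 35% of their UMIs in the top cells. Where a library has no more cells with a UMI than top cells, the share is 100% whatever the spread. An example is Csn1s2a in cold replicate 2 (3 cells with a UMI, 7 top cells).

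Wap, the whey acidic protein of lactation (ENSMUSG00000000381, chromosome 11, 6635482 to 6638637), had 7 UMIs in the whole series. They lay in 6 luminal cells, with 2 UMIs in cold replicate 1, 0 in cold replicate 2 and 3 and 2 at room temperature. Wap was under the low-count filter of the test in each class, and its levels are not compared here.

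Glycam1 encodes a mucin of milk and of high endothelial venules, the vessels through which lymphocytes enter lymph nodes (ENSMUSG00000022491, chromosome 15, 103562759 to 103565081). Of its 6818 UMIs, 6547 lay in 1 vascular endothelial cell of cold replicate 2, whose total was 34841 UMIs. That cell also held 11 UMIs of Chst4, 21 of Fut7, 14 of Madcam1, 90 of Enpp2 and 8 of Gcnt1, genes of such venules, with 62 of Pecam1 and 0 of Epcam and Krt8. The rest of that library had 1 to 6 UMIs per positive cell, in 9.42% of hormone-sensing cells, 6.06% of alveolar progenitors, 4.62% of lymphocytes and 4.26% of macrophages. Cold replicate 1 had 1 UMI and the room-temperature libraries none. Thinned to 2000 UMIs per cell, the shares were 1.64% of hormone-sensing cells, 0.752% of cells with both marker sets and 2.51% of lymphocytes. These are 8 of 489, 1 of 133 and 19 of 757 thinned cells. The unthinned shares were read at median depths of 18542, 39805 and 3877 UMIs per cell in the same order, and the part of depth and of free RNA in the 73 luminal UMIs of this library was not tested further.

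**Figure D5:**
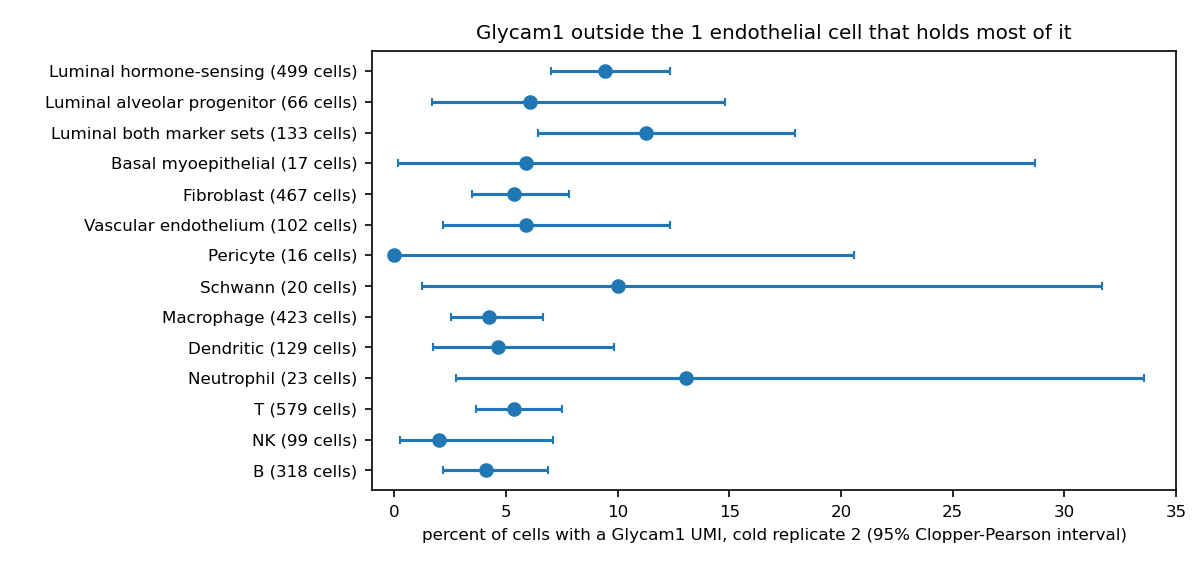
Percent of cells with a Glycam1 UMI in cold replicate 2, by class, without the endothelial cell that held 6547 UMIs; bars are 95% Clopper-Pearson intervals, which cover counting error only. The hormone-sensing interval (7.0 to 12.3%) overlaps that of T cells (3.67 to 7.51%) and lies above those of B cells (2.19 to 6.89%) and macrophages (2.54 to 6.64%), at a median depth of 18542 UMIs per cell against 6261, 2554 and 7751.

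Around the 10 members, 3 further lists describe the pathway: other milk and secretory genes, the prolactin and Stat5 pathway, and iron handling. None of their genes passed the edgeR quasi-likelihood test in any of the 3 luminal classes, where the smallest adjusted p was 0.062 in alveolar progenitors, 0.119 in the class with both marker sets and 0.36 in the hormone-sensing class. At an unadjusted p under 0.05, alveolar progenitors had 7 of 11 tested genes of the first list, 1 of 15 of the second and 1 of 3 of the third, beside 931 of all 6521 genes. The class with both marker sets had 7 of 14, 6 of 20 and 1 of 7, beside 2040 of 11888, and the hormone-sensing class had 7 of 13, 6 of 20 and 1 of 7, beside 1578 of 12797. DESeq2 called none of the listed genes in alveolar progenitors, where it called 51 genes in all. It called 3 of the prolactin list in the class with both marker sets (218 in all), and 2 of the milk list and 2 of the prolactin list in the hormone-sensing class (150 in all). In alveolar progenitors 11 of 20 milk and secretory genes could be tested, with a median log2 fold change of 0.55 against -0.02 over all genes of the class. Folr1, a folate receptor, had 1.22 (SE 0.31), Muc1, a mucin of the milk fat globule membrane, 1.13 (SE 0.28) and Btn1a1, butyrophilin, 0.80 (SE 0.27). Fasn, fatty acid synthase, had -1.46 (SE 0.36). Of the prolactin and Stat5 list, 15 of 20 genes were tested with a median of -0.15. Prlr had 0.12, Stat5a -0.20, Stat5b 0.37, Cish, a target of Stat5, -0.15 and Elf5 0.46. For iron handling 3 of 8 genes were tested, at a median of -0.37, with the transferrin receptor Tfrc at -1.60 (SE 0.55). Elf5 and Mfge8 were also markers for naming alveolar progenitors, and Prlr was one for hormone-sensing cells.

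In the other luminal classes the medians lay below 0. They were -0.55 for milk and secretory genes, -0.26 for the prolactin list and -0.45 for iron handling in the class with both marker sets, against -0.02 over all genes. In the hormone-sensing class they were -0.96, -0.32 and -0.34 against -0.01, with the mix of clusters given above.

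The genes whose levels were most like each member were read over 40 sums of 10 classes in 4 libraries, by Pearson correlation of log2(CPM + 1) among 7031 genes. These sums share libraries and depth, so the values describe the pattern only. Ltf was most like Cck (r = 0.96), the mucus protein gene Fcgbp (0.96) and Btn1a1 (0.95). Wfdc18 was most like Elf5 (0.98) and Plb1 (0.98), and Csn3 most like Wfdc18 (0.97). Csn1s1 and Csn2 were each other's nearest genes (0.84), and Csn1s2a was nearest to Csn1s1 (0.89). Lalba was nearest to Fut9 (0.90) and Trf to Fam234a (0.86).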

How the data were processed

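The authors deposited a matrix of unnormalised UMI counts for each of the 4 libraries. The submitters' processing notes name Cell Ranger 3.0.2, mm10, GRCm38 and Seurat, without saying what each did. No source used here names the annotation release.

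A barcode was kept with 500 or more genes and a mitochondrial share below 15%. Doublets were scored against simulated ones, and the top-scoring 0.8% for every 1000 cells were removed. Counts scaled to 10000 and log-transformed, 2000 variable genes without the 10 members, 30 components and 15 neighbours gave Leiden clusters at resolution 1 (Python 3.11.15, leidenalg 0.10.2, scikit-learn 1.9.0). A cluster was named where 3 fixed markers stood in 10% of its cells and a log2 of 1 above the median cluster (pseudocount 5 CPM). Clusters with both luminal marker sets formed their own class. Sums of the UMI counts over the cells of a class in a library, where each library had at least 20, were tested with edgeR 4.0.16 in R 4.3.3 (TMM, filterByExpr, quasi-likelihood, two-sided, Benjamini-Hochberg over all genes of the class at 0.05). Interactions had the library as block and were not refitted under other clusterings. Counts from 3′ ends were not divided by length. For each class tested, the test was also run on simulated counts with known changes and a single preset spread between libraries. That spread was not taken from these data, so the run does not show how the test performs on them.

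The named genes are the 10 members, 3 lists (up to 4 passing genes per list and class), neutrophil and venule genes, and, for each member with at least 100 epithelial UMIs, the genes with the highest correlation (5 at most). The list genes given with values, none of which passed, were chosen after their values were seen. The members and lists were chosen with earlier results of these data known, and the naming thresholds follow an earlier treatment of them. Fits with the largest hormone-sensing cluster alone, its interactions included, and the crossed block were chosen after seeing the data. Other alternatives were a looser cell filter, resolution 2, members kept in the clustering, doublets left in, a replicate block, fits without the filter on low counts, RLE scaling, each library left out, and DESeq2 1.42.0. Left-out libraries leave 1 library in a group, which is assumed to vary like the others.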

Additional observations from a re-analysis of the deposited data

Results flagged for a closer look

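The cold effect differed between alveolar progenitors and the hormone-sensing class for 4 of the 9 milk protein genes tested, by a test of the difference itself, which 1.11% of all 11560 genes passed in either direction. The difference in log2 fold change was 2.99 for Ltf, 3.45 for Csn3, 2.98 for Wfdc18 and 2.45 for Trf, with edgeR quasi-likelihood adjusted p-values of 1.09e-04, 3.35e-04, 0.0017 and 2.97e-04. In the hormone-sensing class the Upk3a-led cluster held 93.8% of the Csn3 UMIs and made up 31 of 507 cells in cold replicate 1 and 350 of 466 in room-temperature replicate 1. With the Prlr-led cluster alone the differences were 1.98, 0.06, 0.88 and 0.92, and none of the 4 passed.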

How the results depend on the processing

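The number of milk protein genes that passed moved with the processing. For alveolar progenitors it was 2, and it became 5 with no low-count filter, 4 with the looser cell filter (200 genes, 25% mitochondrial), 1 with doublets kept and 0 to 5 with a library left out. For the class with both marker sets it was 0, and it became 2 with DESeq2 1.42.0, 7 with no low-count filter and 0 to 6 with a library left out. For the hormone-sensing class it was 0, and it became 1 with DESeq2, 3 with no low-count filter and 0 to 1 with a library left out. In lymphocytes it was 0, and it became 3 with no low-count filter and 0 to 1 with a library left out. For the difference in cold effect it was 4 for alveolar progenitors against the hormone-sensing class, and it became 0 with the Prlr-led cluster alone and 4 to 6 with a library left out. For both marker sets against the hormone-sensing class it was 0, and it became 7 with no filter and 0 to 3 with a library left out. For alveolar progenitors against both marker sets it was 0, and it became 0 to 1 with a library left out. Leiden resolution 2, RLE scaling and members kept in the clustering gave 2 to 3 in alveolar progenitors and 0 elsewhere. All these counts join both directions. With no low-count filter, the 5 of alveolar progenitors were 3 higher and 2 lower in cold, beside 330 of 15136 genes. The 7 of both marker sets were 3 higher and 4 lower (1272 of 18304 genes), and the 3 of the hormone-sensing class were lower (163 of 18593). With the looser cell filter, the 4 of alveolar progenitors were 3 higher and 1 lower (199 of 6461). The 1 with doublets kept was higher (75 of 6704). The cause of these changes in number was not tested. The cells behind them are few, 38 to 110 alveolar progenitors per library.

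Over all genes, the 96 of alveolar progenitors became 51 with DESeq2, 330 with no filter, 199 with the looser cell filter, 288 with cold replicate 2 left out, 301 with room-temperature replicate 2 left out and 0 with room-temperature replicate 1 left out, where 608 genes had an unadjusted p under 0.05. The 3 of both marker sets became 218 with DESeq2, 1272 with no filter, 0 at resolution 2, with the looser cell filter and with members kept (1105, 1943 and 1917 genes at an unadjusted p under 0.05 by edgeR), and 3 to 1919 with a library left out. The 1 of the hormone-sensing class became 150 with DESeq2, 163 with no filter and 1 to 33 with a library left out. The 12 of lymphocytes became 133, 1495, 278 with the looser cell filter and 3 to 309. The 128 of alveolar progenitors against hormone-sensing cells became 239 with no filter, 5 with the Prlr-led cluster alone and 83 to 239 with a library left out, the 2 of both marker sets against hormone-sensing cells 315, 16 and 0 to 30, and the 192 of alveolar progenitors against both marker sets 25 to 352 with a library left out.

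The libraries share replicate numbers, but nothing states what a number marks. Same-numbered libraries had correlations of deviations of -0.164 in hormone-sensing cells, -0.121 in alveolar progenitors, 0.115 in both marker sets and 0.0895 in lymphocytes. With a replicate block, 3 members passed in alveolar progenitors (150 genes), 2 in both marker sets (218 genes), 0 in hormone-sensing cells (1 gene) and 1 in lymphocytes (1031 genes). With the replicate numbers crossed, 3 members and 452 genes passed in alveolar progenitors and 1 member and 8 genes in hormone-sensing cells.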
